A study of Homo sapiens with 8 samples.

Results

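A set of 10 cytokine genes that tumour cells can transcribe themselves was followed across all libraries: the interleukin-1 genes IL1A and IL1B, the neutrophil-attracting chemokines CXCL8, CXCL1, CXCL2 and CXCL3, the chemokine CCL20, and the interleukin-6 family members IL6, LIF and IL11. They were taken by gene symbol, and all 10 were among the 14668 genes of the count table. The cells were T3M4, an established line from a human pancreatic cancer. Cells with a guide RNA against METTL13 (sgMETTL13), the methyltransferase of the elongation factor eEF1A, were compared with cells carrying a non-targeting guide (sgControl). All cells of both arms went 18 h without serum and then received 10% FBS for 2 h. Poly(A) RNA-seq gave mRNA and ribosome profiling gave footprints, the mRNA fragments that ribosomes protect, with 2 libraries per arm and assay and 8 in all. Whether the cells were a clone or a pool, and whether replicates came from separate cultures, is not in the labels, so a p-value here reflects only the spread between libraries, which may be technical.

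Interleukin-1 alpha and beta act on the same receptor, IL1R1 with its partner IL1RAP, and switch on NF-kB, which in turn drives transcription of many of the other genes here. CXCL1, CXCL2, CXCL3 and CXCL8 signal through CXCR2 and recruit neutrophils, CCL20 recruits CCR6-bearing lymphocytes and dendritic cells, and IL6, LIF and IL11 share the signalling receptor IL6ST. In pancreatic tumours, interleukin-1 and LIF are known as signals between cancer cells and fibroblasts. Their mRNAs are mostly short-lived and rise early after a stimulus.

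Footprint libraries totalled 6063885 to 9837253 counts and RNA libraries 20860953 to 48353722 counts. METTL13 itself was lower in every sgMETTL13 library, at 20.1 and 26.2 CPM in sgMETTL13 footprints against 65.2 and 57.8 CPM in sgControl footprints (CPM are counts scaled to library size after TMM normalization). The epithelial markers KRT7, KRT8, KRT18, KRT19, EPCAM and CDH1 summed to 1670 to 1740 CPM in sgMETTL13 and 1640 to 1720 CPM in sgControl footprints. Of 9 leukocyte markers, 5 had a row, and these summed to 1.93 to 1.98 CPM in sgMETTL13 and 1.2 to 1.57 CPM in sgControl footprints. PTPRC, the pan-leukocyte antigen, had 0 counts in all but 1 footprint library, and the leukocyte mRNA was mostly CD68. Fibroblast markers summed to 21.6 to 21.7 CPM in sgMETTL13 and 22.2 to 25.2 CPM in sgControl footprints, most of it COL1A1, and endothelial markers to at most 0.711 CPM in sgMETTL13 and 1.2 CPM in sgControl. The 2 sgMETTL13 RNA libraries stood apart from each other, with an SD over genes of the log2 difference between replicates of 0.88, against 0.36 between the sgControl RNA libraries. Results on mRNA are therefore given with and without each of them. Any fit with 1 library left out keeps 1 library in that arm and assay, so its p-values reflect no spread there.

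The stretches of 100 bases before the transcription start are shown because several of these genes carry the same NF-kB letters there. RefSeq (GRCh38.p14) gave a promoter for 9 of the 10 genes, LIF being the other one. Capitals mark matches to GGNNTTTCC, a core of NF-kB sites searched on both strands, and in IL1A, which had none, the match to the AP-1 letters TGANTCA. The regions are chr4:73869293-73869392 (plus strand) for CXCL1, chr4:74099196-74099295 (minus) for CXCL2, chr4:74038690-74038789 (minus) for CXCL3, chr4:73740469-73740568 (plus) for CXCL8, chr2:227813742-227813841 (plus) for CCL20, chr7:22727100-22727199 (plus) for IL6 and chr2:112784494-112784593 (minus) for IL1A.
CXCL1: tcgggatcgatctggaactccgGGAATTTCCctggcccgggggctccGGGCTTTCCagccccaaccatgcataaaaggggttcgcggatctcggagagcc
CXCL2: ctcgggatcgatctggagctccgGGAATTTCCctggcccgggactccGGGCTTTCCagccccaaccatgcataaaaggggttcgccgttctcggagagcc
CXCL3: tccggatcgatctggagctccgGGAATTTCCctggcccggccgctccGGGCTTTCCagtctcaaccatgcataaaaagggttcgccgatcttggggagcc
CXCL8: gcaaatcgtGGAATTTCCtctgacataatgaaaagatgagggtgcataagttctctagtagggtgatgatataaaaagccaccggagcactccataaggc
CCL20: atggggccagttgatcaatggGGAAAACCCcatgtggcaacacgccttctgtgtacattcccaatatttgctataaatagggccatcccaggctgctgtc
IL6: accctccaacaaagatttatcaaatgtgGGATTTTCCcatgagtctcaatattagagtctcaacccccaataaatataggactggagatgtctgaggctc
IL1A: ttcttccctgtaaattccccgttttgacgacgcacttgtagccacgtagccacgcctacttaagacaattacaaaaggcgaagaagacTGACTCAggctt

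Within 250 bases before the start, CXCL1, CXCL2 and CXCL3 each held 2 NF-kB matches, the first being GGAATTTCC in all 3, and CXCL8 held that same stretch once. IL6 and CCL20 held 1 match each, and IL1A, IL1B and IL11 held none. Of 35116 RefSeq starts, 5.48% had such a match in the same window and 6.57% had the AP-1 letters, which CXCL8, IL1A and IL11 held once each. Over alignment columns, gaps included, the CXCL1 stretch was 94.1% identical to that of CXCL2 and 90% identical to that of CXCL3. The value for CXCL8 was 45.3%. CXCL8, CXCL1, CXCL3 and CXCL2 lie in that order on chromosome 4 between 73740569 and 74099195, and IL1A (112773925 to 112784493) and IL1B (112829751 to 112836779) lie near each other on chromosome 2. A match describes letters and is not a measured binding site.

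Footprints of 4 of the 10 genes were called higher in sgMETTL13 cells: IL1A, CXCL8, LIF and IL1B. None was called lower. Of the 10714 genes tested, 8.94% were called higher and 12% lower by edgeR's quasi-likelihood test (adjusted p below 0.05). With replicate number as a block only IL1A and CXCL8 kept the call, and with all 8 libraries in one model no gene did. The filter on low counts was passed by 7 of the 10, CXCL1, CXCL2 and IL11 having too few footprints. In 6 of these 7 both sgMETTL13 libraries lay above both sgControl libraries, an order that 32% of all genes showed upward and 32% downward. The filter's cutoff was 1.17 CPM before TMM scaling. IL6 and CCL20 reached it in both sgMETTL13 libraries and in 1 sgControl library each, so a difference upward was partly built into their being tested. The other 5 were over it in all 4 libraries, and their median log2 fold change was 0.69, against 0.01 for all genes tested. The members were chosen with earlier results of these data known, so comparisons with all genes are descriptive only. In bulk lysates, a change in the share of producing cells and a change per cell cannot be told apart.

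IL1A, which encodes interleukin-1 alpha, an alarmin that is active without cleavage, had 305.9 and 311.9 CPM in sgMETTL13 footprints, against 150.1 and 140.4 CPM in sgControl footprints. Both sgMETTL13 libraries lay at about the same level and far above both sgControl libraries. The means were 308.9 ± 4.21 CPM and 145.3 ± 6.89 CPM (SD, n = 2 each), a log2 fold change of 1.09 with SE 0.126 (edgeR adjusted p = 6.38e-07 over all genes). Of the 10714 genes tested, 119 had a larger log2 fold change. The call held whichever footprint library was left out and was lost when all 8 libraries were fitted together, where the log2 fold change was again 1.09 (edgeR adjusted p = 0.583) and 0 of all genes were called.

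IL1B encodes interleukin-1 beta, made as an inactive precursor that caspase-1 cleaves. It had 148 and 191.3 CPM in sgMETTL13 footprints, against 125.7 and 123.1 CPM in sgControl footprints. The arms did not overlap, but the sgMETTL13 libraries differed from each other by more than replicate 1 differed from sgControl. The log2 fold change was 0.45 with SE 0.138 (edgeR adjusted p = 0.0205), and it was 0.25 and no longer called without sgMETTL13 replicate 2 (edgeR adjusted p = 0.485). Without sgControl replicate 2 it was 0.43 and also missed (edgeR adjusted p = 0.0658).

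CXCL8, the classic neutrophil attractant interleukin-8, had 69.8 and 60.5 CPM in sgMETTL13 footprints, against 49.8 and 30.3 CPM in sgControl footprints. Here the sgControl pair was the more spread, with replicate 2 lowest. The log2 fold change was 0.69 with SE 0.174 (edgeR adjusted p = 0.0056). Without sgControl replicate 2 it was 0.38 and not called (edgeR adjusted p = 0.173), and without sgControl replicate 1 it was 1.11 and called.

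**Figure D1:**
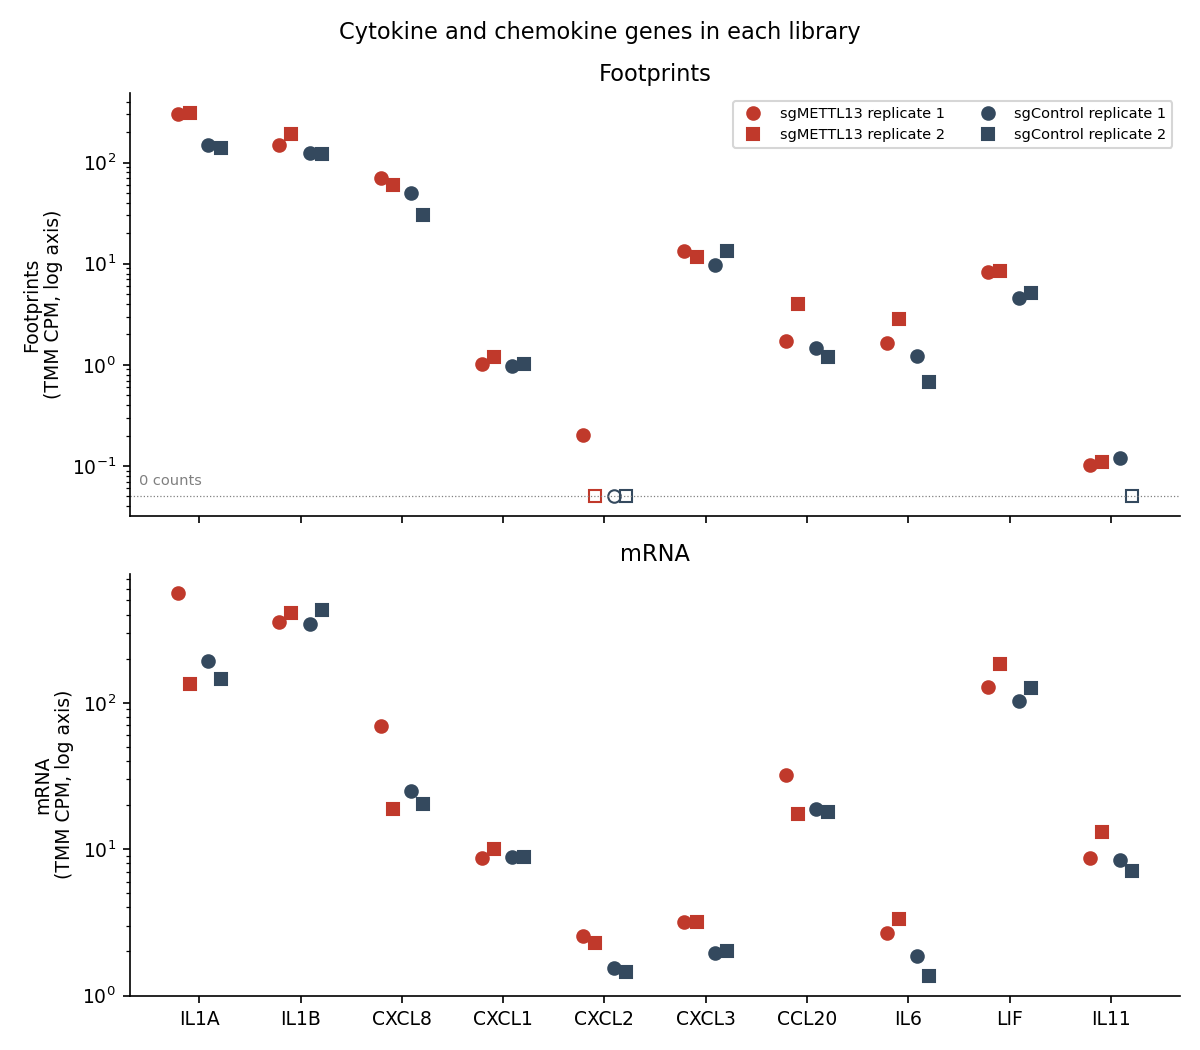
Level of each gene in each library, footprints above and mRNA below, in TMM-scaled CPM on log axes, with sgMETTL13 libraries left of sgControl libraries for each gene, circles for replicate 1, squares for replicate 2 and open symbols for 0 counts. IL1A footprints sit at 305.9 and 311.9 CPM in sgMETTL13 and at 150.1 and 140.4 CPM in sgControl, while its 2 sgMETTL13 mRNA values are 564.1 and 134.4 CPM. Heights of different genes also depend on their lengths.

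CXCL3 was the only one of the paralogs CXCL1, CXCL2 and CXCL3 with enough footprints to test. It had 13.5 and 11.8 CPM in sgMETTL13 footprints, against 9.80 and 13.3 CPM in sgControl footprints, and the arms overlapped. The log2 fold change was 0.15 with SE 0.219 (edgeR adjusted p = 0.677), and -0.08 without sgControl replicate 1. CXCL1 had 10 and 11 footprint counts in sgMETTL13, against 8 and 6 in sgControl. CXCL2 had 2 and 0 counts in sgMETTL13 and 0 in both sgControl libraries, where 0 counts allow up to 0.363 and 0.513 CPM, for counting error only.

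The split of counts within the trio differed between assays. CXCL3 held 91.7% and 90.7% of the CXCL1, CXCL2 and CXCL3 footprint counts in sgMETTL13 and 91% and 92.9% in sgControl. In mRNA its share was 22% and 20.6% in sgMETTL13 (exact 95% intervals 18.9 to 25.3% and 17.5 to 24%), against 15.7% and 16.4% in sgControl (12.5 to 19.4% and 12.1 to 21.5%). These intervals cover counting error only. CXCL1 held most of the mRNA counts, at 60.3% and 64.5% in sgMETTL13 and 71.8% and 71.9% in sgControl. How reads that match several places were counted is not stated, so the split among these paralogs is uncertain, above all in short footprints. Summed over the trio, footprint counts were 145 and 118 in sgMETTL13 and 89 and 84 in sgControl, a log2 fold change of 0.16 with SE 0.212 (edgeR adjusted p = 0.638).

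CCL20 had 1.73 and 3.95 CPM in sgMETTL13 footprints (17 and 36 counts), against 1.45 and 1.197 CPM in sgControl footprints (12 and 7 counts). The arms did not overlap, and sgMETTL13 replicate 2 alone was well above the rest. The log2 fold change of 1.06 had an SE of 0.429 and was not called (edgeR adjusted p = 0.0768). The log2 fold change was 1.54 without sgMETTL13 replicate 1, the lower of that pair, and 0.36 without sgMETTL13 replicate 2. With no filter on low counts it was 1.07 and called (edgeR adjusted p = 0.0495). CCL20 passed the filter through both sgMETTL13 libraries and only 1 sgControl library, so a difference upward was partly built in.

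LIF, a cytokine that maintains stem cell states and signals through LIFR and IL6ST, had 8.23 and 8.56 CPM in sgMETTL13 footprints (81 and 78 counts), against 4.60 and 5.13 CPM in sgControl footprints (38 and 30 counts). Within each arm the libraries lay close together, and the arms were well apart. The log2 fold change was 0.79 with SE 0.26 (edgeR adjusted p = 0.0282). At these counts the call was lost with any 1 footprint library left out (edgeR adjusted p = 0.0775 to 0.155) and with DESeq2 (adjusted p = 0.132), while the value stayed between 0.71 and 0.86.

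IL6 itself, the acute-phase cytokine, had 1.63 and 2.85 CPM in sgMETTL13 footprints (16 and 26 counts), against 1.21 and 0.684 CPM in sgControl footprints (10 and 4 counts). Its log2 fold change of 1.16 had an SE of 0.455 and was not called (edgeR adjusted p = 0.0672). Without sgMETTL13 replicate 1, the lower of that pair, it was 1.51. It was 0.71 without sgMETTL13 replicate 2 and 0.86 without sgControl replicate 2. Like CCL20, IL6 passed the filter through both sgMETTL13 libraries and only 1 sgControl library, so a difference upward was partly built in. IL11 had 1 count in each sgMETTL13 footprint library and 1 and 0 counts in sgControl, too few for a comparison, although its mRNA held 147 to 525 counts in every library.

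**Figure D2:**
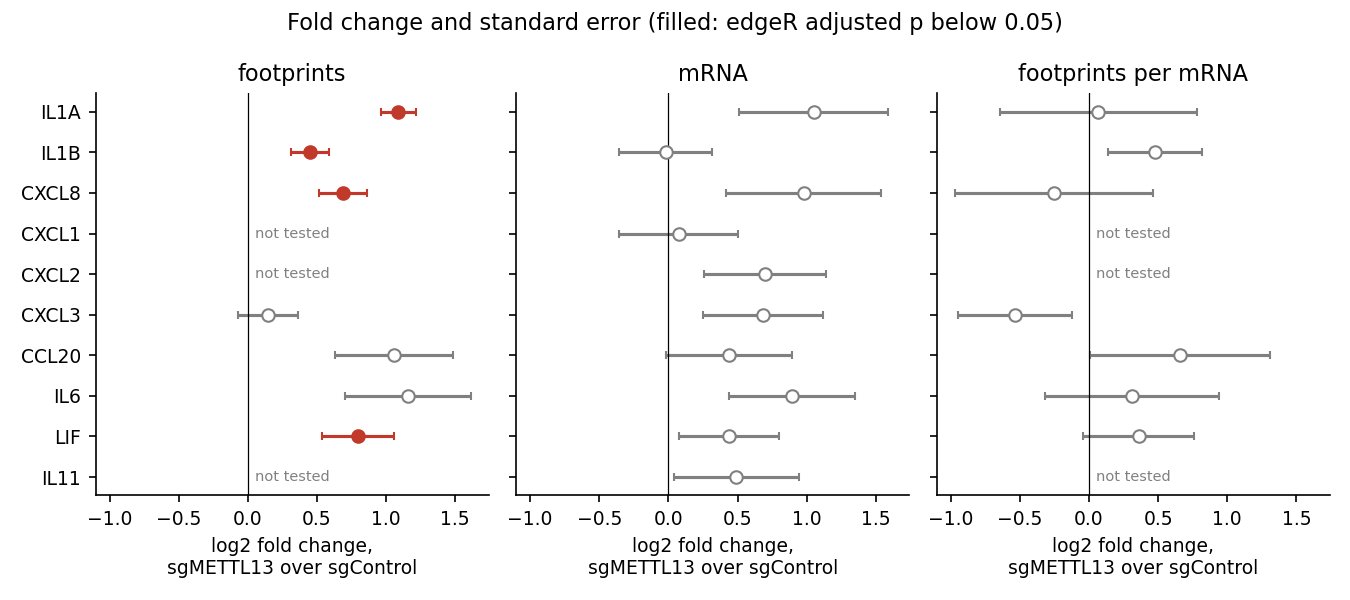
Log2 fold change of sgMETTL13 over sgControl with its standard error for footprints, mRNA and footprints per mRNA, one row per gene; filled points passed edgeR's adjusted p of 0.05. In footprints 4 of the 7 genes tested are filled, all above 0, and in the other 2 panels none is filled. The bars there are mostly wider, as for IL1A (SE 0.126 in footprints and 0.539 in mRNA). IL6 is an exception in mRNA (SE 0.455 in footprints and 0.454 in mRNA).

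None of the 10 mRNAs passed the test, and neither did any of the 12468 genes tested by edgeR (0% called). None of the 10 had an unadjusted p below 0.05, against 100 of all genes, and DESeq2 called 0 as well. Both sgMETTL13 libraries lay above both sgControl libraries for 5 of the 10 mRNAs, CXCL2, CXCL3, IL6, LIF and IL11, an order found in 5.11% of the genes tested. The opposite order was found for none of the 10 and for 6.84% of all genes. Genes of 1 library can deviate together, so these are not separate results. The median log2 fold change of the 10 was 0.59, against 0.04 for all genes. Here too the comparison with all genes is descriptive only, since the 10 were chosen with earlier results of these data known.

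CXCL2 mRNA read 2.56 and 2.29 CPM in sgMETTL13, against 1.53 and 1.45 CPM in sgControl, a log2 fold change of 0.70 with SE 0.442. CXCL3 mRNA read 3.17 and 3.19 CPM in sgMETTL13, against 1.94 and 2.02 CPM in sgControl, a log2 fold change of 0.68 with SE 0.435. Both pairs were tight within each arm. CXCL1 mRNA, with nearly the same promoter stretch, read 8.68 and 9.97 CPM in sgMETTL13 and 8.85 and 8.86 CPM in sgControl, where the arms overlapped (log2 fold change 0.07, SE 0.43). Leaving out any 1 RNA library gave 0.66 to 0.77 for CXCL2, 0.67 to 0.76 for CXCL3 and -0.03 to 0.24 for CXCL1. Whether CXCL1 differed from the other 2 in its response was not tested, and the split of reads among these paralogs is uncertain. Summed over the trio, the mRNA log2 fold change was 0.28 (SE 0.431).

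IL6 mRNA read 2.66 and 3.34 CPM in sgMETTL13, against 1.86 and 1.35 CPM in sgControl, and LIF mRNA 128.4 and 183.3 CPM in sgMETTL13, against 103.3 and 126.4 CPM in sgControl. IL11, a cytokine of the same family, read 8.74 and 13.1 CPM in sgMETTL13 mRNA, against 8.42 and 7.08 CPM in sgControl mRNA. For LIF and IL11 the lower sgMETTL13 library was only just above the higher sgControl library. Log2 fold changes were 0.89 (SE 0.454), 0.44 (SE 0.36) and 0.49 (SE 0.449) for IL6, LIF and IL11. IL1B mRNA read 356.9 and 407.3 CPM in sgMETTL13 and 343.9 and 431.3 CPM in sgControl, so that the sgMETTL13 values lay between the sgControl values (log2 fold change -0.02, SE 0.336). Leaving out any 1 RNA library gave 0.69 to 1.17 for IL6, 0.16 to 0.74 for LIF, 0.17 to 0.82 for IL11 and -0.15 to 0.15 for IL1B, none of them called.

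IL1A, CXCL8 and CCL20 mRNA were high in 1 sgMETTL13 library only. IL1A had 564.1 CPM in the first sgMETTL13 library and 134.4 CPM in the other one, against 191.5 and 145.9 CPM in sgControl. CXCL8 read 69.9 and 18.9 CPM in sgMETTL13, against 24.8 and 20.2 CPM in sgControl, and CCL20 read 32.2 and 17.5 CPM in sgMETTL13, against 18.7 and 18.0 CPM in sgControl. In all 3 genes sgMETTL13 replicate 2 was the lowest of the 4 libraries. The ratio of sgMETTL13 replicate 1 to replicate 2 was 4.2 for IL1A and 3.7 for CXCL8, and 4.25% and 6.19% of genes had a ratio at least as high, while CCL20, at 1.84, was matched or passed by 24.9%. The other 7 genes had ratios of 0.668 to 1.11.

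Which sgMETTL13 RNA library is kept thus set the value for these 3 genes. Without sgMETTL13 replicate 1 the mRNA log2 fold changes were -0.26 for IL1A, -0.19 for CXCL8 and -0.0032 for CCL20. Without sgMETTL13 replicate 2 they were 1.74, 1.63 and 0.81. Each of these fits held 1 sgMETTL13 RNA library, so the spread within that arm could not be measured. In footprints the 2 sgMETTL13 libraries of IL1A and CXCL8 differed little, at 305.9 and 311.9 CPM and at 69.8 and 60.5 CPM. The labels do not say whether RNA and footprint libraries of the same number came from 1 lysate.

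**Figure D3:**
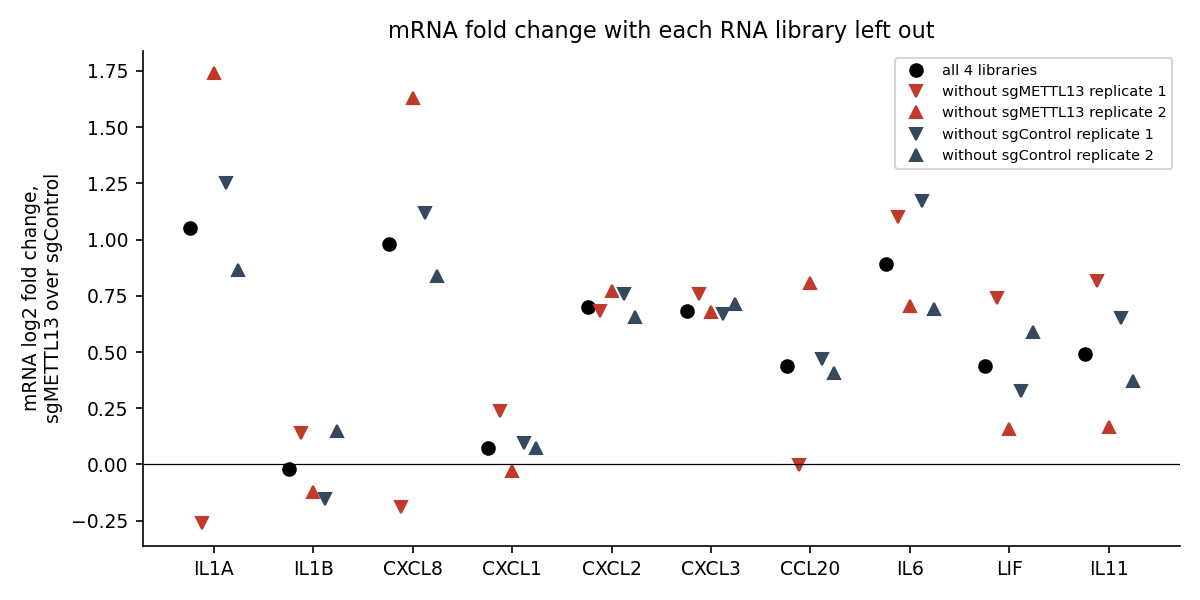
mRNA log2 fold change of sgMETTL13 over sgControl for each gene with all 4 RNA libraries (black) and with each library left out (red for sgMETTL13, dark for sgControl, pointing down for replicate 1 and up for replicate 2). IL1A and CXCL8 run from -0.26 and -0.19 without sgMETTL13 replicate 1 to 1.74 and 1.63 without sgMETTL13 replicate 2, while CXCL2 and CXCL3 stay within 0.66 to 0.77.

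Footprints per mRNA, the measure closest to translation per transcript, did not differ by the test between the arms in any of the 7 genes measured in both assays. Of 10446 genes edgeR called none (0%), while 347 had an unadjusted p below 0.05, none of them among the 7, and DESeq2 called 5 genes, none of the 7 among them. The log2 differences ran from -0.54 (SE 0.412) for CXCL3 to 0.66 (SE 0.653) for CCL20, where the median of all genes was -0.11. With CXCL1, CXCL2 and CXCL3 summed, the log2 difference of the trio was -0.12 (SE 0.388). IL1B, whose footprints rose while its mRNA values overlapped, read 0.48 with SE 0.34, and 0.28 to 0.65 with 1 library left out. LIF read 0.36 with SE 0.402, and from 0.04 without sgMETTL13 mRNA replicate 1 to 0.67 without sgMETTL13 mRNA replicate 2. IL6 read 0.31 with SE 0.628, and -0.14 to 0.82 with 1 library left out. IL1A read 0.07 with SE 0.712 and CXCL8 -0.25 with SE 0.718. With standard errors of this size a change of the magnitude seen in footprints was not detectable. For IL1A the value was 1.34 without sgMETTL13 mRNA replicate 1 and -0.62 without sgMETTL13 mRNA replicate 2, each from 1 sgMETTL13 RNA library.

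Within an arm, the genes differed widely in how many footprints they carried for their mRNA. The ratio of footprint CPM to mRNA CPM was 0.0539 for LIF in sgMETTL13 and 0.0423 in sgControl, where the median of the 10446 genes was 0.782 in sgMETTL13 and 0.859 in sgControl. LIF thus lay at percentile 2.16 in sgMETTL13 and 2.05 in sgControl. Among the 7 genes tested in both assays CCL20 was next, with a ratio of 0.114 in sgMETTL13 and 0.0721 in sgControl (percentiles 6.67 and 3.86). IL11 lay lower still, at 0.00968 in sgMETTL13 and 0.0078 in sgControl, from 2 footprints and 1 footprint per arm, and did not pass the footprint filter, and CXCL2, which did not pass it either, had 0.0419 in sgMETTL13 and no footprint in sgControl.

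Ratios nearer the middle were found for IL1B (0.444 in sgMETTL13 and 0.321 in sgControl), IL6 (0.746 in sgMETTL13 and 0.591 in sgControl) and IL1A (0.885 in sgMETTL13 and 0.861 in sgControl). CXCL8 carried 1.47 footprint CPM per mRNA CPM in sgMETTL13 and 1.78 in sgControl. CXCL3 had the highest ratio, 3.97 in sgMETTL13 and 5.84 in sgControl (percentiles 94.7 and 95.2). CXCL1 had a low one, 0.119 in sgMETTL13 and 0.113 in sgControl, which goes with the uneven split of the trio's counts. Since that split is uncertain, so are the separate ratios and percentiles of these paralogs. The spread over same-numbered libraries was wide for IL1A, at 0.542 and 2.32 in sgMETTL13 against 0.784 and 0.962 in sgControl. IL6, at 0.611 and 0.854 in sgMETTL13 and 0.652 and 0.507 in sgControl, overlapped with IL1A in sgMETTL13 and lay below it in both sgControl pairs. LIF stayed below all of the other 6 genes tested in both assays but CCL20 in every library pair, at 0.0641 and 0.0467 in sgMETTL13 and 0.0445 and 0.0406 in sgControl. The ratio also depends on how much of a transcript is coding, since footprints come from the coding part and mRNA reads from the whole.

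**Figure D4:**
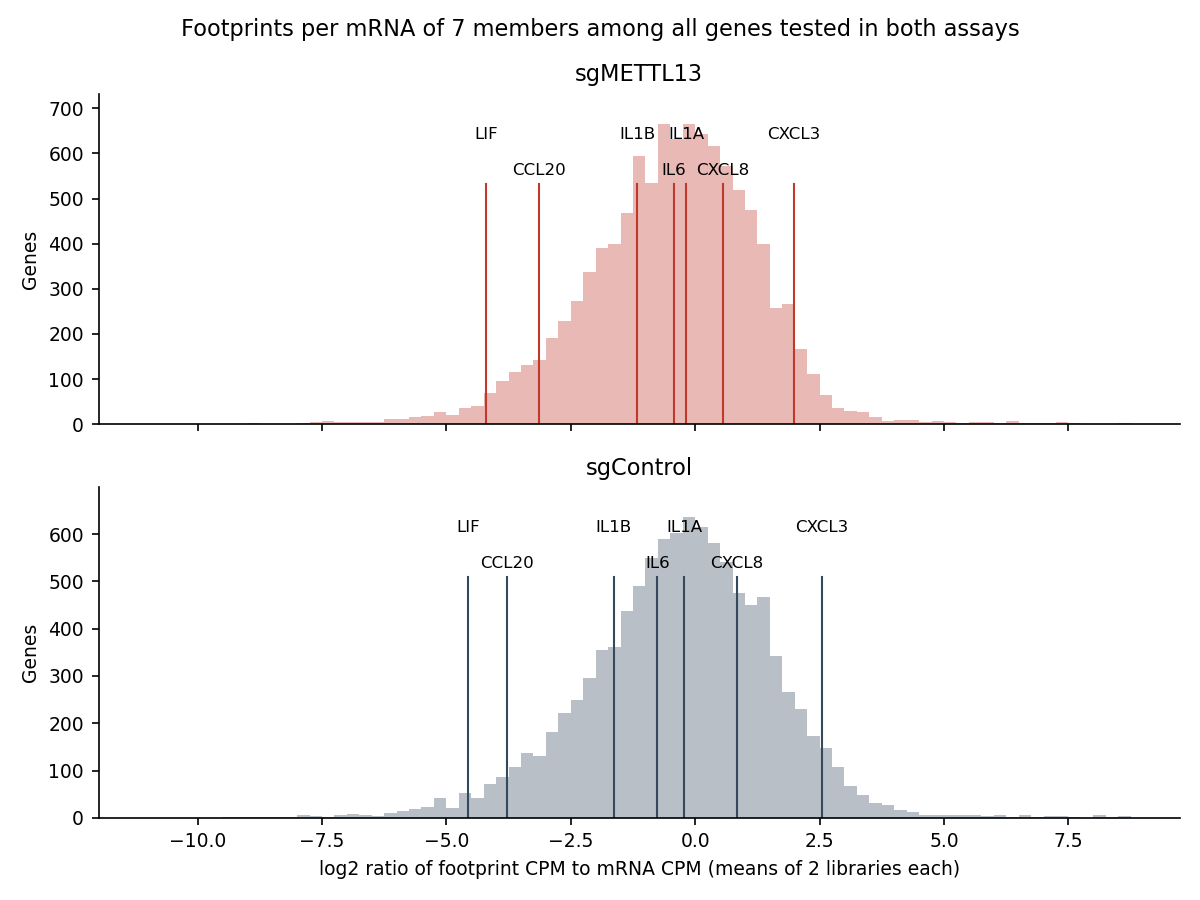
Distribution over 10446 genes of the log2 ratio of footprint CPM to mRNA CPM, sgMETTL13 above and sgControl below, with lines for the 7 genes tested in both. LIF and CCL20 lie in the lower tail in both arms and CXCL3 in the upper tail, at percentiles 94.7 in sgMETTL13 and 95.2 in sgControl. The place of CXCL3 is uncertain, as is the split of reads among CXCL1, CXCL2 and CXCL3.

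The 5 lists of related genes were counted in footprints against the 8.94% of all genes called higher and 12% called lower, with an all-gene median log2 fold change of 0.01. Of 14 other secreted cytokines, chemokines and inflammatory enzymes tested in footprints, 2 rose and 1 fell, counts too small to set apart from those shares, with a median log2 fold change of 0.17. PTGS2, the inducible cyclooxygenase that makes prostaglandins and is an interleukin-1 target, had 61.0 and 63.9 CPM in sgMETTL13 footprints, against 32.4 and 30.6 CPM in sgControl footprints (log2 fold change 0.98, SE 0.152, edgeR adjusted p = 4.89e-05). PTGS2 mRNA was high in 1 sgMETTL13 library only, at 74.5 and 23.5 CPM in sgMETTL13, against 28.1 and 30.8 CPM in sgControl. IL24, a cytokine of the interleukin-10 family, rose by 0.75 on the log2 scale in footprints. IL36G, an epithelial cytokine of the interleukin-1 family, had 0.711 and 1.21 CPM in sgMETTL13 and 1.82 and 3.08 CPM in sgControl, a log2 fold change of -1.30 that passed. IL36G reached the filter's 1.17 CPM (before TMM scaling) in both sgControl libraries and in 1 sgMETTL13 library. A difference downward was thus partly built into its being tested. The PTGS2 call held whichever footprint library was left out, IL24 lost its call without sgControl replicate 2, and IL36G kept its call only without sgControl replicate 1.

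Receptors and signal transducers gave no call among 17 tested in footprints (edgeR), of 25 listed, and their median log2 fold change was -0.05. The receptor genes tested in footprints were IL1RAP, IL6R, IL6ST and LIFR, while IL1R1, CXCR2 and CCR6 were not tested there. IL1R1 was tested in mRNA, with a log2 fold change of -0.37 (SE 0.514), and was not called. Of 12 genes for maturation and release of interleukin-1, 1 rose and 3 fell, beside 8.94% and 12% of all genes, and the median was -0.23. HAX1, a protein that binds the interleukin-1 alpha precursor, had 185.4 and 168 CPM in sgMETTL13 footprints, against 252 and 352.2 CPM in sgControl footprints (log2 fold change -0.77, SE 0.14, edgeR adjusted p = 0.000304). CASP8, an apoptotic protease that can also cleave interleukin-1 beta, had a log2 fold change of -0.67, and CAPN2, a calpain of the family that processes interleukin-1 alpha, -0.49. CASP4, an inflammatory caspase, rose by 0.44. HAX1 alone of these 4 stayed called whichever footprint library was left out.

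Among 25 transcriptional regulators 4 rose and 6 fell in footprints, beside 8.94% and 12% of all genes, with a median log2 fold change of 0.10 against 0.01 for all genes. NFKBIB, an inhibitor that holds NF-kB in the cytoplasm, had a log2 fold change of -0.98, the NF-kB subunit genes NFKB2 and RELB -0.68 and -0.48, the coactivator BCL3 -1.31 and the inhibitor NFKBIE -0.68. TNFAIP3, which shuts NF-kB signalling off, rose by 0.61. The other calls, named after their values were seen, were JUNB at -0.44 and ATF3, EGR1 and the inhibitor NFKBIA at 0.50, 0.68 and 0.36. NFKB2 and NFKBIB stayed called whichever footprint library was left out and the other 8 did not.

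Regulators of cytokine mRNA decay gave 1 rise and 2 falls among 24 tested, no more than the 8.94% and 12% of all genes. ZFP36L2, which binds AU-rich elements and promotes decay, had 12.5 and 11.5 CPM in sgMETTL13 footprints, against 21.3 and 20.7 CPM in sgControl footprints (log2 fold change -0.80, SE 0.192, edgeR adjusted p = 0.00353). HNRNPD, an AU-rich element binding protein, had a log2 fold change of -0.39, and PABPC1, the poly(A)-binding protein, rose by 0.34. ZFP36L2 lost its call without sgMETTL13 replicate 2, and HNRNPD and PABPC1 lost theirs without at least 2 of the 4 libraries each. No gene of these 5 lists passed in mRNA or in footprints per mRNA by edgeR.

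**Figure D5:**
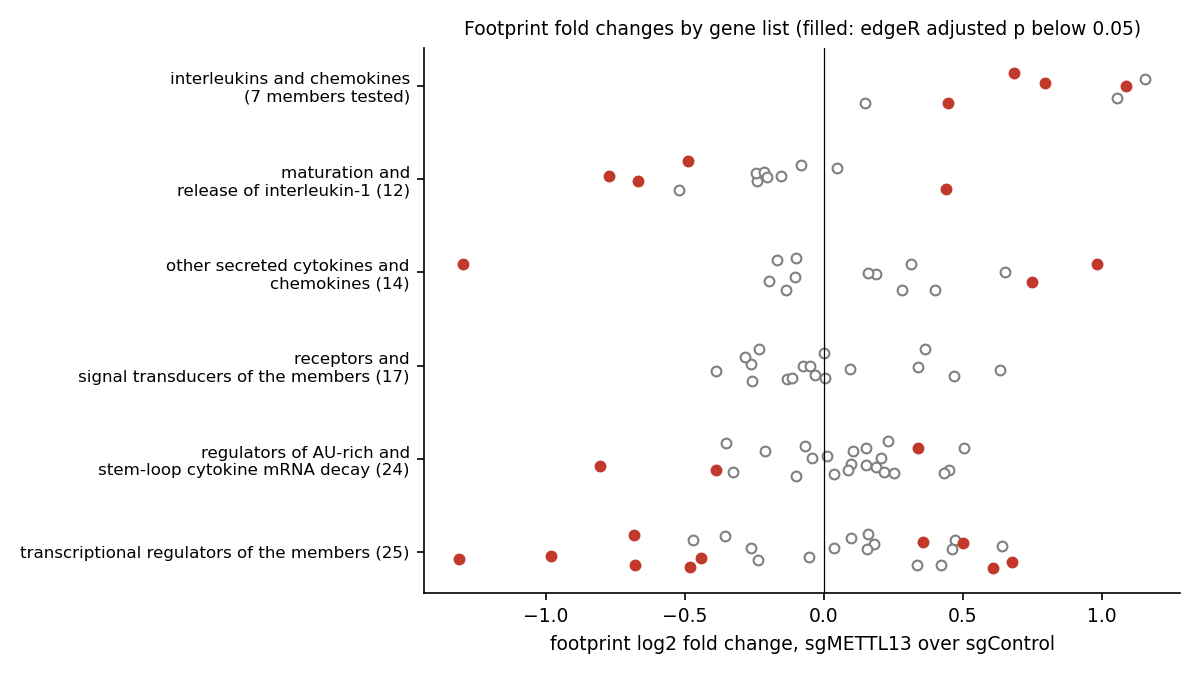
Footprint log2 fold change of sgMETTL13 over sgControl for the 7 interleukins and chemokines tested and for the genes of 5 related lists, with the number tested in brackets; each point is a gene and filled points passed edgeR's adjusted p of 0.05. Filled points of the first row lie above 0. The lists of transcriptional regulators (4 higher, 6 lower) and of interleukin-1 maturation (1 higher, 3 lower) have filled points on both sides. So do other secreted cytokines (2 higher, 1 lower) and regulators of mRNA decay (1 higher, 2 lower), while receptors and signal transducers have none.

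Over the 8 libraries, the profile most like that of IL1A was that of ELOVL7, an enzyme of fatty acid elongation, at a distance of 0.266, followed by NXT2 (0.327) and the sterol carrier gene STARD4 (0.336). The distance was Euclidean, on log2 CPM centred within each assay, over 10443 genes, whose median distance from IL1A was 2.02. For CXCL8 the closest were IREB2, an iron-regulatory RNA-binding protein (0.231), OXR1 (0.248) and the sulphate transporter gene SLC26A2 (0.288). IL1A and CXCL8 were closer to each other, at 0.603, than to any of the other 5 members ranked, of which CCL20 came next (1.26 from IL1A and 1.33 from CXCL8). The remaining 4 lay 1.7 to 1.96 away from either one. IL1A and CXCL8 were also the 2 members with the largest ratio between the sgMETTL13 RNA libraries. Those 2 libraries enter the distance, and how far the ranking rests on them was not tested.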

How the data were processed

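The authors deposited raw counts per gene symbol for all 8 libraries. Per the submitters' processing notes, reads were handled with cutadapt 1.18, UMI-tools, Bowtie 1.2.2, HISAT2 2.0.4 and featureCounts on hg38, with no role or order given. RNA-seq was stranded and selected for poly(A), and active ribosomes were captured on puromycin-analog beads, per the labels' protocols. Annotation, strand setting and handling of reads with several matches are not given in the sources used here.

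The fits used edgeR 4.0.16 under R 4.3.3 (two-sided quasi-likelihood F test, TMM factors and filterByExpr within each assay) on the 4 footprint and the 4 RNA libraries apart. Footprints per mRNA were the interaction term over all 8 libraries. P-values were adjusted by Benjamini-Hochberg over all genes tested, with 0.05 as the threshold. SE is the log2 fold change divided by the root of F. Intervals of shares are Clopper-Pearson. On simulated data with 200 changed genes, 2-fold changes were recovered for 80% of genes in footprints (10714 genes), 2% in mRNA (12468) and 0% in footprints per mRNA (10446), and 4-fold changes for 98%, 58% and 49%.

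The members and gene lists were chosen with earlier results of these data known. Named were all 10 members, METTL13, up to 6 called genes per list (names beyond it are marked) and the 3 closest profiles to IL1A and to CXCL8. Alternatives were DESeq2 1.42.0, RLE factors, other filters, replicate blocks, a joint fit, summing CXCL1 to CXCL3 and leaving out each library. Protein lengths were not used here, so levels of different genes were not compared per length.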

Additional observations from a re-analysis of the deposited data

How the results depend on the processing

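The 4 footprint calls became 2 (IL1A and CXCL8) with a replicate block, 0 when all 8 libraries were fitted in one model, and 1 to 5 with 1 footprint library left out; RLE factors, either other filter, DESeq2 and the summed CXCL row gave 3 to 5. In mRNA 0 calls became 0 to 3 with 1 library left out, and in footprints per mRNA 0 to 1; no other alternative, the replicate blocks included, gave a call among the 10 genes there. Over all genes, footprint calls (2245) were 1479 with DESeq2, 0 in the joint model, and 701 to 3018 with 1 library left out; mRNA calls (0) were 0 to 2509, and calls in footprints per mRNA (0) were 5 with DESeq2 and 0 to 1384, with 1 library left out.

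Signs turned only in values that were not called with all libraries. With 1 library left out, CXCL3 footprints ran from -0.076 to 0.362; mRNA ran from -0.26 to 1.74 for IL1A, -0.15 to 0.15 for IL1B, -0.19 to 1.63 for CXCL8, -0.0309 to 0.238 for CXCL1 and -0.0032 to 0.81 for CCL20; footprints per mRNA ran from -0.62 to 1.34 for IL1A, -0.90 to 0.87 for CXCL8, -0.143 to 0.82 for IL6 and -0.0478 to 1.14 for CCL20. CXCL8 footprints per mRNA were 0.0504 with a replicate block by guide and number, chosen after seeing the data. The causes were not tested.

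The labels do not say what a shared replicate number stands for, and with 2 numbers the pairing was not established: deviations of same-numbered libraries correlated at -0.194 between the arms in footprints and at 0.435 in mRNA, and between assays at 0.173 in sgControl and 0.0136 in sgMETTL13. With the numbers crossed, also chosen after seeing the data, 6 members and 3220 genes were called in footprints. Low counts limit IL6, CCL20, CXCL1, CXCL2 and IL11 in footprints.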
